A study of Mus musculus with 16 samples.

Results

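The MHC class I genes followed here are B2m, H2-K1, H2-D1, H2-Q4, H2-Q6, H2-Q7, H2-T23, Tap1, Tap2 and Tapbp, which are 10 of the 27998 genes counted in single-cell RNA sequencing of mouse bone marrow. They were chosen by symbol because several of them had stood out in hematopoietic stem cells (HSCs) when Tet2-KO mice were compared with WT mice under IL1β. For that reason the same contrast in HSC-like cells is given here as a description with no test, and the question addressed is whether B2m and the H2-Q genes were also higher in other marrow cells. C57BL/6 mice without Tet2 in blood cells (Tet2-KO, Vav-Cre Tet2-/-) and mice with intact floxed Tet2 and no Cre (WT, Tet2fl/fl) received IL1β at 500 ng per mouse per day by intraperitoneal injection, or vehicle, for 5 weeks. Mice were 6 to 12 weeks old, and each of the 4 groups held 4 mice. Lineage-depleted marrow, from which most mature cells had been removed, was tagged with hashtag antibodies and run on 10x 3′ libraries, with 2 mice of the same group in each of 8 libraries. The Vav promoter drives Cre across blood cells. Only the Tet2-KO mice carried Cre, so loss of Tet2 and the transgene cannot be told apart, and each group was spread over 2 libraries of its own, so a difference between groups includes the difference between their libraries.

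MHC class I molecules display peptides from inside the cell to CD8 T cells and to receptors of natural killer (NK) cells. A heavy chain, encoded in the H2 region in the mouse, folds around the light chain β2-microglobulin. The proteasome cuts the peptides, the TAP transporter carries them into the endoplasmic reticulum, and tapasin holds the empty heavy chain beside TAP until a peptide binds. Interferon γ raises transcription of the whole set through IRF1 and the transactivator NLRC5, and inflammatory cytokines also act through NF-κB. In the marrow, nearly all nucleated cells carry class I, and low class I exposes a cell to NK cells.

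The light chain gene B2m (ENSMUSG00000060802) lies at chr2:122147686-122153083 on the plus strand of GRCm38. The other genes lie on chromosome 17. The classical heavy chains H2-K1 (ENSMUSG00000061232) and H2-D1 (ENSMUSG00000073411), the main presenters to CD8 T cells, lie at chr17:33996017-34000347 on the minus strand and chr17:35262730-35267499 on the plus strand. The nonclassical heavy chains of the Q region, H2-Q4 (ENSMUSG00000035929), H2-Q6 (ENSMUSG00000073409) and H2-Q7 (ENSMUSG00000060550), lie on the plus strand at chr17:35379617-35385290, chr17:35424850-35430055 and chr17:35439155-35443773. H2-Q6 and H2-Q7 encode forms of Qa-2. H2-T23 (ENSMUSG00000067212), which encodes Qa-1, the ligand of the NK receptor CD94/NKG2A, lies at chr17:36029773-36032855 on the minus strand. The transporter subunits Tap1 (ENSMUSG00000037321) and Tap2 (ENSMUSG00000024339) lie on the plus strand at chr17:34187553-34197225 and chr17:34203527-34216321. Tapbp (ENSMUSG00000024308), which encodes tapasin, lies on the plus strand at chr17:33915899-33929292. All 10 are protein-coding. Because 3′ libraries read the ends of transcripts, the last 400 bases of each were cut into 50-base words. Of the words of H2-Q6, 63.8% also occurred in another class I gene, and 61.5% occurred in H2-Q7. The share for the words of H2-Q7 was 0.57%. The share was 19.9% for H2-K1, all of it with H2-D1, and at most 7.12% for the others. Counts of H2-Q6 are therefore uncertain.

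Promoter sequences from RefSeq (GRCm38.p6) are shown for B2m, H2-K1, H2-Q6 and H2-Q7, 4 of the genes compared below, because these promoters hold letters of the elements through which inflammatory signals reach class I genes. Each run covers 200 bases ending at the base before the annotated start, written along the gene's own strand. The windows are chr2:122147487-122147686 for B2m (plus strand), chr17:34000348-34000547 for H2-K1 (minus strand), chr17:35424650-35424849 for H2-Q6 (plus strand) and chr17:35438955-35439154 for H2-Q7 (plus strand). Capitals mark matches on either strand to an NF-κB-like element (GGG, any 2 bases, TT, any base, CC), to 1 of 2 interferon element-like pairs (GAAA, any 2 bases, GAAA, called the full pair, or GAA, any 2 bases, GAAAC, called the short pair), to TGACG and to CCAAT. In these 4 windows no match overlapped another.
B2m: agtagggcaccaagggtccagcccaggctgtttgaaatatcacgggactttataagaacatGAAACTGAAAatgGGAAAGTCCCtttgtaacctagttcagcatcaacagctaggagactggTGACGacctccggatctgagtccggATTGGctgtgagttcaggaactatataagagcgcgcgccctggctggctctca
H2-K1: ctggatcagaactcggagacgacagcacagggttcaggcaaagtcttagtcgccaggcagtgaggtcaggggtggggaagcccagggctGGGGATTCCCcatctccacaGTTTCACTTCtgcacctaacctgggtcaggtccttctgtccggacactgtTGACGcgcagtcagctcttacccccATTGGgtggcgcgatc
H2-Q6: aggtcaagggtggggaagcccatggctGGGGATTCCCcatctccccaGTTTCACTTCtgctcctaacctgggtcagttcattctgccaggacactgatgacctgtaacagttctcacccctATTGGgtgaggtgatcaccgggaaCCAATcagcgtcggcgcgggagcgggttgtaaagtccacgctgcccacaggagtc
H2-Q7: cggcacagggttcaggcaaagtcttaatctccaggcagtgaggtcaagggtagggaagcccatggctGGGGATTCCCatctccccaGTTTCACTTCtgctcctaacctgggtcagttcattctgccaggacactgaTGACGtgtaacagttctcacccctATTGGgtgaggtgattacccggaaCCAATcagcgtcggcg
In H2-K1, H2-Q6 and H2-Q7 the NF-κB-like element and the short pair followed each other in this order, while in B2m the full pair came first. Of the 10 genes, 9 had a RefSeq promoter entry, and 250 bases before each start were searched. The NF-κB-like element occurred in 6 of the 9 (B2m, H2-K1, H2-D1, H2-Q4, H2-Q6 and H2-Q7) and in 4.11% of 32851 promoters of the same length. The short pair occurred in 5 of the 9 (H2-K1, H2-D1, H2-Q4, H2-Q6 and H2-Q7) against 1.45% of all promoters, and the full pair in 2 (B2m and H2-T23) against 2.98%. TGACG occurred in 6 of 9 against 17.8%, and CCAAT in 9 of 9 against 33.8%. The promoters of H2-K1, H2-D1, H2-Q4, H2-Q6 and H2-Q7 share sequence around these elements, so their matches are not independent of each other. A match of letters is a description and not a measured binding site.

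The 8 libraries held 11555 to 19573 barcodes each, of which 94917 passed the filters in all (at least 750 genes and at most 10% mitochondrial UMIs). A single hashtag was called for 57896 cells, both hashtags for 3938 cells, which were left out as doublets, and none for 33083. Of the cells with a mouse, 45303 (78.2%) entered a class by UMIs of marker genes, none of them a class I gene, and 14.0% met several gates and were placed by a fixed order. Of 18 such classes, 16 had at least 10 cells in at least 3 mice of every group, and they are named "X-like" from those markers. The mice contributed 698 to 6432 cells and 4388604 to 44152768 UMIs, and libraries shared 0.128% to 0.512% of their barcodes. HSC-like cells (2149 cells, 18 to 272 per mouse) were led by Hlf, Ctla2a and Meis1. NK and T cell-like cells (836 cells, 2 to 152 per mouse) were led by Ccl5, Ms4a4b and the plasma cell gene Jchain, and their median of 1890 UMIs per cell was below the library medians of 4436 to 7363. Jchain in them ran from 60.6 to 1878 CPM in Tet2-KO and 66.0 to 1960 CPM in WT mice given IL1β, which overlapped, and its part in their values was not tested. Erythroblast-like cells also carried Camp, Ngp, S100a8 and Jchain, genes of granulocytes and plasma cells, among their 10 leading genes, and the part of such RNA in their values was not tested. Reads of the 3′ end of Tet2 remained in Tet2-KO granulocyte progenitor-like cells (34.2 to 82.8 CPM, the gene's share of all UMIs of that mouse and class, against 36.9 to 61.9 CPM in WT), which checks nothing about the deletion.

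Class I genes were not evenly expressed over the marrow of WT mice given vehicle. B2m was highest in plasma cell-like cells, with 3840, 2535, 4042 and 3940 CPM in mice 1 to 4 (mean 3589 ± 708, SD, n = 4), and lowest in CFU-E-like cells, late erythroid progenitors, with 551, 478, 599 and 496 CPM (531 ± 55.0). The 2 classes did not overlap, and their means differed 6.76-fold. NK and T cell-like and HSC-like cells came next below plasma cell-like cells, granulocyte progenitor-like cells and immature neutrophil-like cells near the bottom, and erythroid cells last. Along this order of 16 classes, 12 of 15 pairs of neighbours differed by less than their SD. CPM, counts per 1000000 UMIs of that mouse and class, compares classes for the same gene and not the genes with each other. The classes come from the same mice, so the order is a description with no test.

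**Figure D1:**
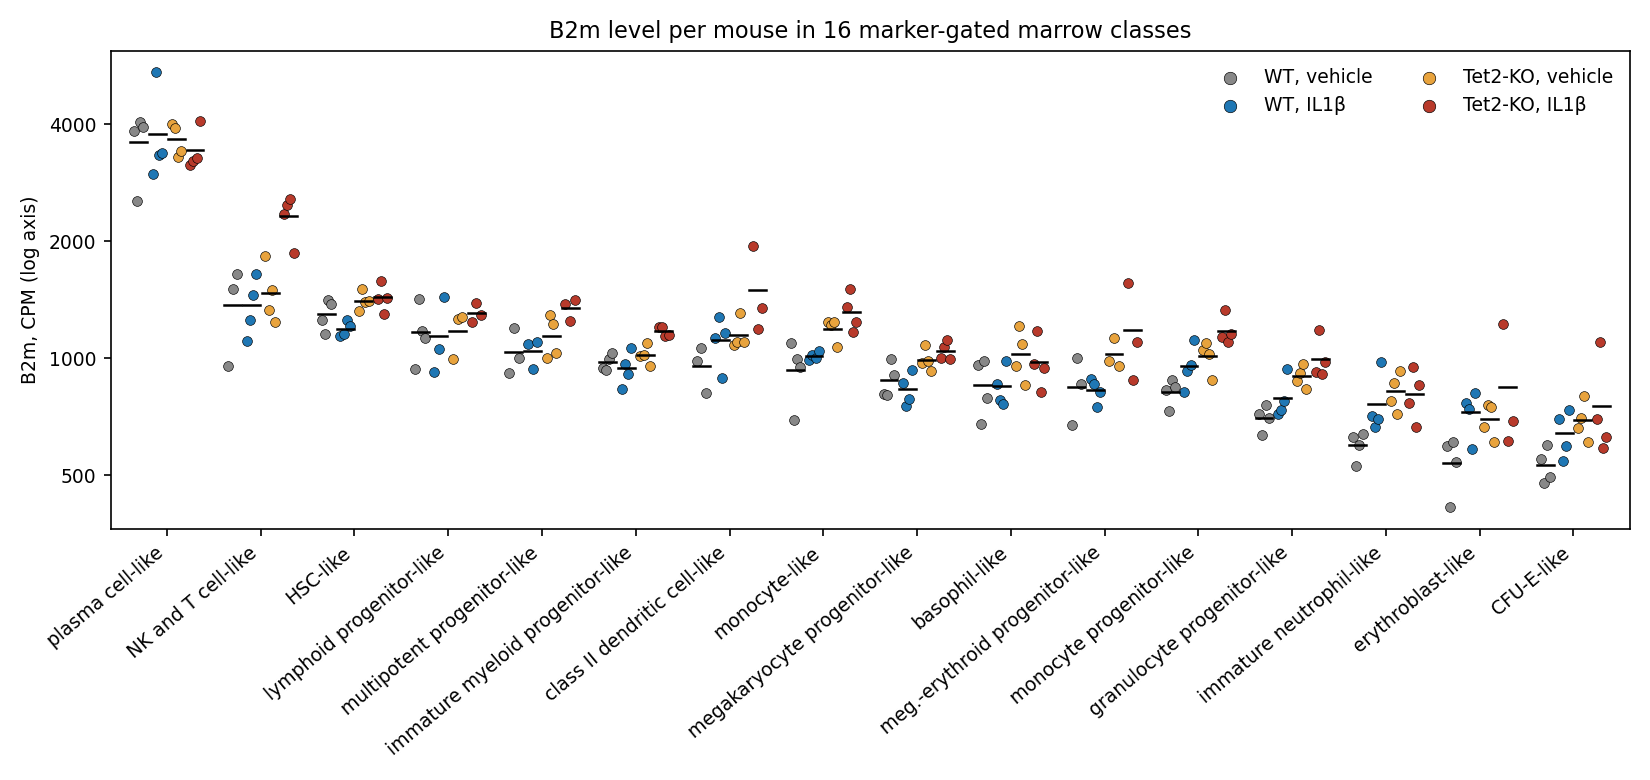
B2m in CPM (log axis) for each mouse (points) in 16 marker-gated classes and 4 groups, with group means as lines. Plasma cell-like cells sit highest and CFU-E-like cells lowest in WT mice given vehicle, and in NK and T cell-like cells the 4 Tet2-KO mice given IL1β (1866 to 2570 CPM) sit above the 4 WT mice given IL1β (1110 to 1649 CPM).

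The heavy chains had their own orders. H2-K1 peaked in NK and T cell-like cells (1231 ± 295 CPM, n = 3 mice) and was lowest in erythroblast-like cells (229 ± 53.0, n = 4), 5.38-fold apart. H2-D1 peaked instead in monocyte-like cells (801 ± 124) and was lowest in CFU-E-like cells (239 ± 27.5), 3.35-fold apart. H2-Q7 had the steepest well-measured order, with 339 ± 37.5 CPM in NK and T cell-like cells and 17.8 ± 4.34 in monocyte progenitor-like cells, 19.0-fold apart. H2-Q6 was also highest in NK and T cell-like cells (64.6 ± 35.1), and H2-Q4 was highest in HSC-like cells (28.5 ± 9.21). H2-T23 ran from 253 ± 81.1 CPM in plasma cell-like cells to 33.6 ± 3.58 in granulocyte progenitor-like cells. Of the loading genes, Tap1 and Tap2 were highest in lymphoid progenitor-like cells (110 ± 18.3 and 118 ± 12.2) and lowest in erythroblast-like cells (23.6 ± 15.6 and 20.5 ± 10.0). Tapbp was highest in plasma cell-like cells (241 ± 53.1) and lowest in megakaryocyte progenitor-like cells (46.8 ± 9.51). In each of these orders 12 to 15 of the 15 pairs of neighbours differed by less than their SD.

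In HSC-like cells, where the genes had been chosen, the Tet2-KO mice given IL1β had more B2m than the WT mice given IL1β. B2m stood at 1424, 1577, 1303 and 1430 CPM in Tet2-KO mice 1 to 4 and at 1138, 1155, 1257 and 1208 CPM in WT mice, with no overlap (log2 fold change 0.32). With vehicle the values were 1324, 1506, 1392 and 1404 CPM in Tet2-KO and 1257, 1153, 1414 and 1383 CPM in WT, which overlapped. H2-Q6 (0.86) and H2-Q7 (0.72) had the largest log2 fold changes of the 10 under IL1β, but the mice overlapped. H2-Q7 was at 285, 215, 193 and 222 CPM in Tet2-KO and at 121, 201, 82.2 and 312 CPM in WT, so that WT mouse 4 lay above all Tet2-KO mice. H2-Q6 was at 81.4, 78.6, 58.6 and 45.4 CPM in Tet2-KO and at 34.9, 62.8, 24.2 and 67.9 CPM in WT, which also overlapped. The other 7 genes had log2 fold changes of 0.08 (H2-Q4) to 0.21 (Tapbp).

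Beyond the stem cells, the class I difference between Tet2-KO and WT under IL1β passed the test in NK and T cell-like cells and in no other class. There B2m, both classical heavy chains and both Qa-2 genes were higher in Tet2-KO, 1.74-fold to 2.45-fold. Log2 fold changes and p-values come from edgeR's quasi-likelihood test on UMI counts summed per mouse and class, with p adjusted by Benjamini-Hochberg over all genes tested in the class, and a gene is called at an adjusted p under 0.05. Over the 15 classes beyond HSC-like cells, 134 of 150 pairs of gene and class passed the filter on low counts, and 5 of them were called, all higher, beside 0.292% of the pairs of all genes called in either direction. Within NK and T cell-like cells 5 of 10 class I genes were called higher, beside 3.12% of the 3818 genes tested. Tet2-KO mice 1 to 4 given IL1β held 193189, 414803, 82484 and 165553 UMIs in 87, 152, 34 and 63 of these cells. WT mice 1 to 4 given IL1β held 119798, 45445, 187051 and 180076 UMIs in 24, 12, 51 and 58 cells. Each Tet2-KO mouse thus had fewer UMIs per cell than each WT mouse, and the part of this depth in the result was not tested.

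B2m stood at 2350, 2483, 2570 and 1866 CPM in Tet2-KO mice 1 to 4 given IL1β and at 1110, 1254, 1454 and 1649 CPM in WT mice given IL1β. Every Tet2-KO mouse lay above every WT mouse (log2 fold change 0.83, SE 0.17, adjusted p = 0.00854, edgeR). With vehicle the same cells held 1833, 1328, 1502 and 1238 CPM in Tet2-KO and 953, 1505 and 1644 CPM in WT mice 1, 3 and 4, which overlapped, and WT mouse 2 was left out with only 2 such cells. The heavy chain H2-D1 was at 1035, 1044, 1176 and 918 CPM in Tet2-KO and at 626, 638, 508 and 500 CPM in WT under IL1β. These mice did not overlap either (log2 fold change 0.97, SE 0.19, adjusted p = 0.00556, edgeR). H2-K1 was at 2593, 2572, 2122 and 1842 CPM in Tet2-KO and at 1085, 1430, 1508 and 1533 CPM in WT, again without overlap (log2 fold change 0.80, SE 0.19, adjusted p = 0.0203, edgeR). All 3 genes separated the genotypes, which over the 15 classes held for 2.11% of the pairs of all genes. That share was not computed for NK and T cell-like cells alone. More genes were called there, 3.12% higher beside 0.292% in either direction over the 15 classes.

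The Qa-2 gene H2-Q7 showed the largest called change of the 10. It was at 652, 718, 630 and 453 CPM in Tet2-KO and at 225, 352, 267 and 250 CPM in WT under IL1β, with no overlap (log2 fold change 1.29, SE 0.26, 2.45-fold, adjusted p = 0.00647, edgeR). With vehicle it was at 528, 319, 497 and 194 CPM in Tet2-KO and at 329, 308 and 381 CPM in WT, where the Tet2-KO mice lay on both sides of WT. H2-Q6 was at 160, 142, 158 and 90.6 CPM in Tet2-KO and at 41.7, 110, 58.8 and 61.1 CPM in WT under IL1β, where Tet2-KO mouse 4 lay below WT mouse 2 (log2 fold change 1.24, SE 0.32, adjusted p = 0.0280, edgeR). With the UMIs of H2-Q4, H2-Q6 and H2-Q7 added up, so that reads split among these genes count once, the log2 fold change was 1.27 (adjusted p = 0.00528, edgeR). The other 5 genes were not called. H2-Q4 (log2 fold change 1.70, adjusted p = 0.0813, edgeR) and H2-T23 (0.77, adjusted p = 0.0790) lay nearest to the threshold, and the loading genes Tap1, Tap2 and Tapbp had log2 fold changes of 0.04, 0.31 and 0.22.

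**Figure D2:**
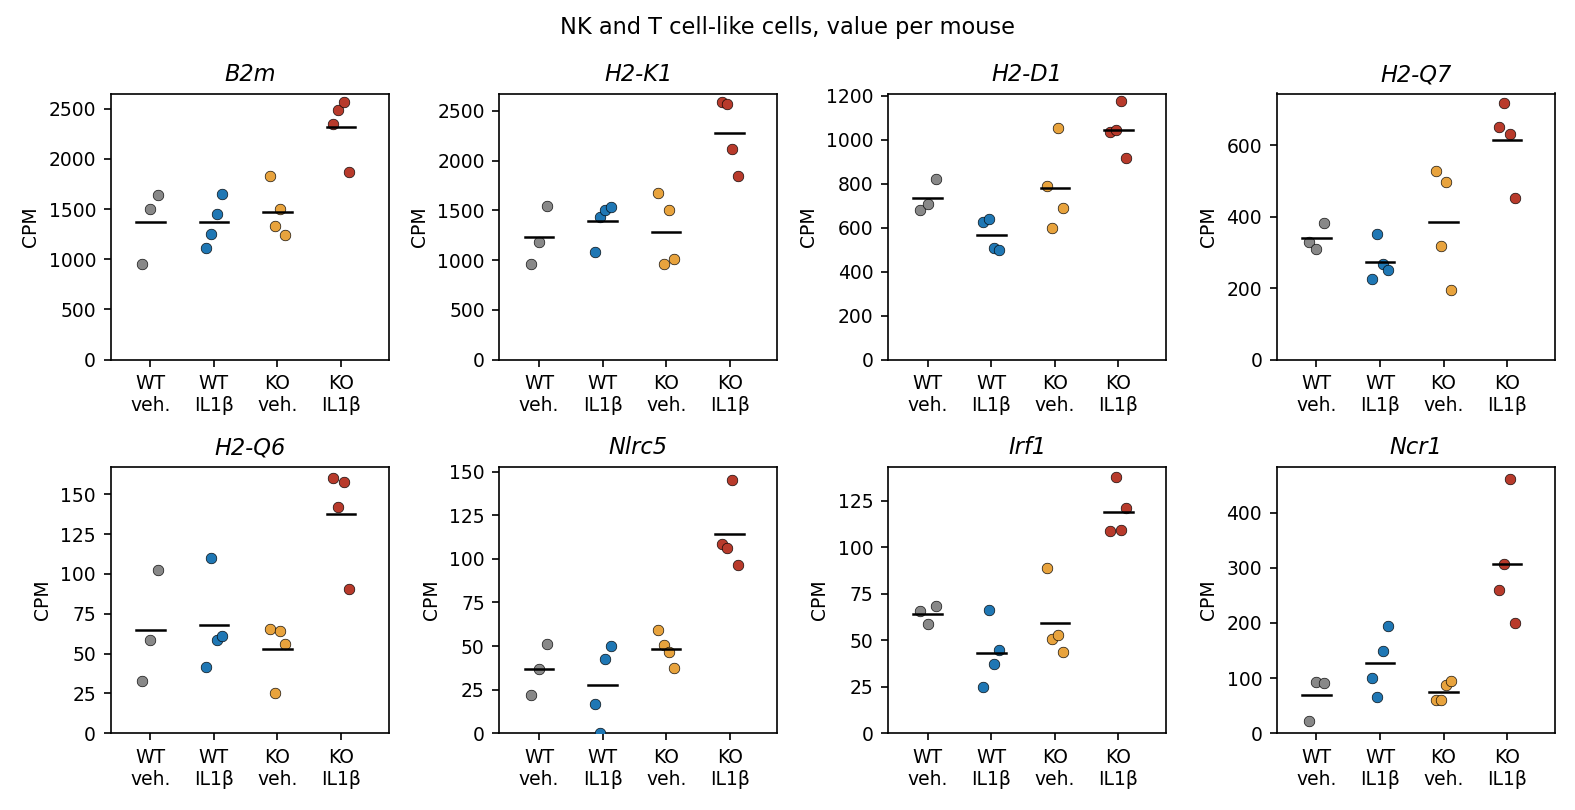
CPM per mouse (points) and group mean (horizontal lines) in NK and T cell-like cells for B2m, heavy chain genes, Nlrc5, Irf1 and the NK receptor gene Ncr1. The 4 Tet2-KO mice given IL1β lie above the 4 WT mice given IL1β for B2m, H2-K1, H2-D1, H2-Q7 and Nlrc5, and with vehicle the genotypes overlap for B2m and H2-Q7.

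The marker genes of the NK and T cell-like class also differed in level between these groups, while the share of its cells with a UMI of Cd3d, Cd3e or Cd3g overlapped (32.4% to 51.7% in Tet2-KO and 33.3% to 44.8% in WT mice given IL1β). The summed level of 6 NK marker genes, all of them with UMIs in every group, was 2996 to 4255 CPM in Tet2-KO mice given IL1β and 1102 to 2363 CPM in WT mice given IL1β, against 1226 to 2106 and 920 to 1888 CPM with vehicle. Ncr1, the NK receptor NKp46, was at 199 to 461 CPM against 66.0 to 194 CPM under IL1β. The sum of 6 T cell markers, of which Cd4 had no UMI in WT mice given IL1β, was 519 to 947 CPM against 246 to 439 CPM. The sum of 9 granulocyte progenitor markers was 439 to 582 CPM against 144 to 451 CPM, and that of 9 erythroblast markers 133 to 1812 CPM against 310 to 2371 CPM. The 9 marker genes of the class gate found in the files summed to 6312 to 7565 CPM against 2296 to 4354 CPM. NK and T markers were thus higher in the same mice as the class I genes, and their part in the result was not tested. In a split by that UMI, added after the values had been seen, the cells without one had log2 fold changes of 0.90 for B2m (adjusted p = 0.0271, edgeR), 1.14 for H2-D1, 1.52 for H2-Q6 and 1.36 for H2-Q7, which were called, and of 0.84 for H2-K1 (adjusted p = 0.0637), so that 4 of 8 class I genes were called beside 2.20% of the genes tested. In the cells with such a UMI 0 of 9 class I genes tested were called by edgeR, nor any of the 2558 genes tested. WT mice 1 and 2 given IL1β, with 8 and 4 such cells, were left out, so only WT mice 3 and 4, from 1 library, were compared. For the cells without one, WT mouse 2 was left out. The lack of calls with so few WT mice does not confine the difference to cells without a Cd3 UMI. In the cells with a Cd3 UMI the log2 fold changes were 0.60 for B2m (adjusted p = 0.289, edgeR), 0.72 for H2-K1, 0.96 for H2-D1 and 1.40 for H2-Q7. These 4 genes had an unadjusted p under 0.05, for which no share over all genes is given.

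Over 25 settings of the processing (24 for the Qa-2 genes), B2m and H2-D1 were called in 24, H2-Q7 in all 24, H2-K1 in 19 and H2-Q6 in 15. With libraries in place of mice as replicates B2m (adjusted p = 0.0718, edgeR), H2-K1 (0.0629) and H2-Q6 (0.0538) were lost, and with 1 more marker asked for in the gate H2-D1 (adjusted p = 0.105, edgeR), H2-K1 (0.109) and H2-Q6 (0.201). H2-K1 was also lost without Tet2-KO mouse 1 (adjusted p = 0.0746), Tet2-KO mouse 2 (0.0613), WT mouse 1 (0.0623) or WT mouse 3 (0.0521) of the IL1β groups. DESeq2 did not call H2-Q6 (adjusted p = 0.0763). By edgeR H2-Q6 was also lost without any of Tet2-KO mice 1, 2 and 3 or WT mice 1, 3 and 4 of those groups (adjusted p = 0.0556 to 0.118). The log2 fold changes of the 5 genes stayed above 0 in every setting, from 0.56 for H2-K1 to 1.41 for H2-Q7.

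In the other 14 classes beyond the stem cells, most class I genes had somewhat higher values in Tet2-KO than in WT under IL1β, and by edgeR no gene was called with the settings used throughout. DESeq2 called 3 pairs there, described below. Without the filter on low counts edgeR called 4, B2m in granulocyte progenitor-like (adjusted p = 0.0285), H2-Q7 in CFU-E-like (0.0221) and immature myeloid progenitor-like (0.0311) and H2-Q6 in multipotent progenitor-like cells (0.0124). It called H2-D1 in megakaryocyte-erythroid progenitor-like cells with hashtags called by ratio (0.0122) and in immature neutrophil-like cells with Leiden clusters (0.0363). For these other settings no share of all genes called is given. Counting all 15 classes, 122 of 134 pairs of gene and class (91.0%) lay higher in Tet2-KO, where 50.3% of the pairs of all genes did. An unadjusted p under 0.05 with a higher level in Tet2-KO was seen in 51 of the 134 pairs, against 4.28% of the pairs of all genes, and with a lower level in 0. Without Tet2-KO mouse 2 of the IL1β group 30 of 131 pairs were higher at that p and 1 was lower, and without any other single mouse 40 to 62 were higher. The median log2 fold change of the 134 pairs was 0.32, and that of all genes 0.00. The classes come from the same mice and libraries, so these pairs are not independent of each other, and the genes had been chosen on the same contrast in HSCs of these mice.

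B2m lay higher in 14 of 15 classes (median log2 fold change 0.36), 10 of them at an unadjusted p under 0.05. In 5 of the 15 classes every Tet2-KO mouse lay above every WT mouse, which held for 2.11% of the pairs of all genes. Granulocyte progenitor-like cells, with the most UMIs, had 921, 1181, 910 and 979 CPM of B2m in Tet2-KO and 717, 738, 779 and 936 CPM in WT under IL1β (log2 fold change 0.40, adjusted p = 0.0516, edgeR). WT mouse 4 lay among the Tet2-KO mice, and without that mouse the gene was called (0.47, adjusted p = 0.0276), as it was without Tet2-KO vehicle mouse 3 (0.0480), with 1 more marker in the gate (0.0440) and with the library number as a block (0.0390). DESeq2 on the same sums called it too (adjusted p = 0.00291). In immature myeloid progenitor-like cells B2m was at 1203, 1201, 1142 and 1150 CPM in Tet2-KO and at 834, 969, 910 and 1061 CPM in WT, without overlap (log2 fold change 0.36, adjusted p = 0.202, edgeR, and 0.0310 by DESeq2). Only plasma cell-like cells, the class with the highest B2m, had a log2 fold change below 0 (-0.09, adjusted p = 0.928), and that sign turned without WT mouse 2 of the IL1β group (0.19) and with libraries as replicates (0.098). In erythroblast-like cells it was 0.23, and -0.13 without Tet2-KO mouse 2 of that group.

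The heavy chains followed. H2-D1 lay higher in 15 of 15 classes (median log2 fold change 0.43, 10 at an unadjusted p under 0.05), and H2-K1 in 14 of 15 with smaller values (median 0.19, 2 at an unadjusted p under 0.05). In immature myeloid progenitor-like cells H2-D1 was at 627, 529, 521 and 569 CPM in Tet2-KO and at 427, 413, 356 and 411 CPM in WT, which did not overlap (log2 fold change 0.51, adjusted p = 0.182, edgeR, and 0.0332 by DESeq2). H2-Q7 lay higher in 13 of the 14 classes where it was tested (median 0.83, 8 at an unadjusted p under 0.05). In immature myeloid progenitor-like cells H2-Q7 was at 102, 75.9, 68.6 and 67.2 CPM in Tet2-KO and at 38.5, 42.8, 30.4 and 64.4 CPM in WT, again without overlap (log2 fold change 0.96, adjusted p = 0.182, edgeR). In monocyte-like cells, where H2-Q7 is scarce, the groups were mixed, with 0 to 22.4 CPM in Tet2-KO and 3.59 to 54.7 CPM in WT. H2-Q6 lay higher in 8 of 8 classes (median 1.00) and H2-Q4 in 6 of 7 (median 0.45). These 2 genes passed the filter on low counts in few classes, so neither count covers all marrow cells. The filter asks for counts in a number of mice and not in each group. Tet2-KO mice can thus carry a gene through it, which favours classes where Tet2-KO is higher. Without the filter H2-Q6 lay higher in 14 of 15 classes (median 1.00) and H2-Q4 in 10 of 15 (0.37).

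Of the remaining genes, H2-T23 lay higher in 14 of 15 classes (median log2 fold change 0.41, 8 at an unadjusted p under 0.05) and Tap1 in 14 of 15 (median 0.30, 5). Tap2 lay higher in 13 of 15 with no class at an unadjusted p under 0.05 (median 0.19), and Tapbp in 11 of 15 (median 0.06, 1). The Q-region values depended in part on 1 animal. Without Tet2-KO mouse 2 of the IL1β group the median over classes was 0.45 for H2-Q7 (11 of 14 higher, 2 of 14 at an unadjusted p under 0.05), 0.64 for H2-Q6 (4 of 6 higher), 0.23 for H2-Q4 (4 of 6 higher) and 0.09 for H2-K1 (9 of 15 higher), that for Tapbp was below 0 (-0.03), and those for B2m (0.31, 13 of 15 higher) and H2-D1 (0.36, 15 of 15) moved less. Without WT mouse 3 of the IL1β group the median for H2-Q7 was 0.53 (4 of 14 at an unadjusted p under 0.05), that for H2-K1 0.12 and that for B2m 0.33. With at least 30 cells asked of each mouse it was 0.39 for H2-Q7.

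**Figure D3:**
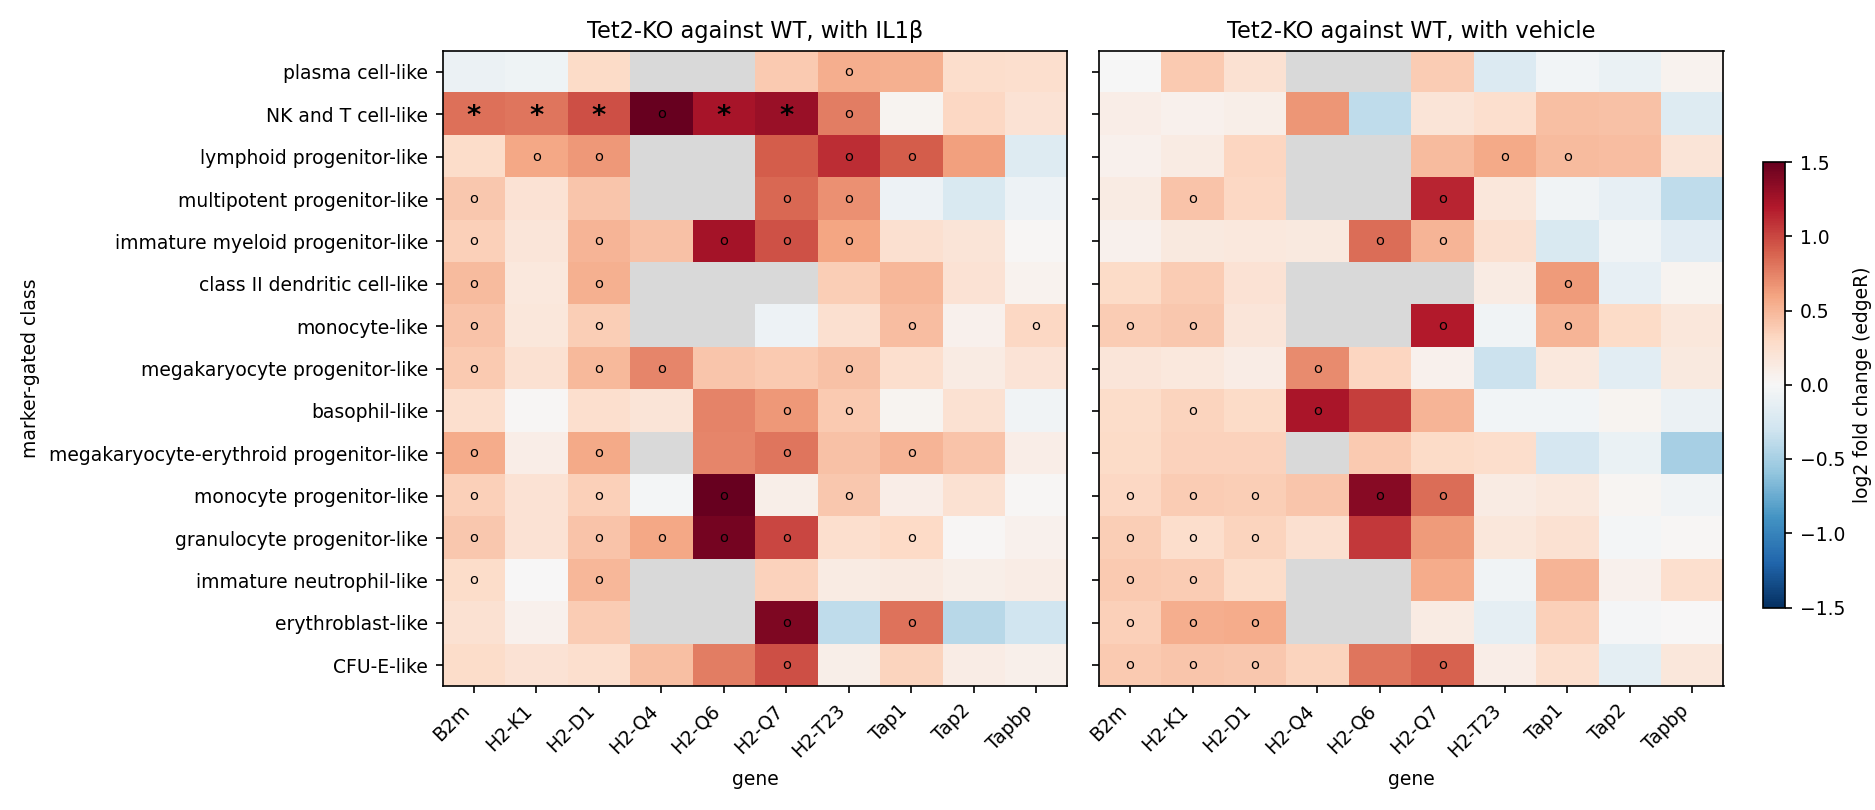
Log2 fold change of Tet2-KO against WT for each class I gene (columns) and each class beyond HSC-like cells (rows), under IL1β (left) and vehicle (right). Asterisks mark an adjusted p under 0.05, circles an unadjusted p under 0.05, and grey a gene not tested; the 5 asterisks all fall in NK and T cell-like cells under IL1β, and 122 of 134 values under IL1β lie above 0.

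With vehicle, Tet2-KO mice also had somewhat more class I transcripts than WT in most classes. By edgeR 0 of 144 pairs of gene and class were called, where 0.0322% of the pairs of all genes were, 31 pairs were higher at an unadjusted p under 0.05 (2.15% of the pairs of all genes) and 0 were lower. DESeq2 called 1, B2m in granulocyte progenitor-like cells. Beyond HSC-like cells 106 of 134 pairs (79.1%) lay higher in Tet2-KO, and 51.1% of all genes' pairs did. H2-K1 lay higher in 15 of 15 classes (median log2 fold change 0.38, 8 at an unadjusted p under 0.05), H2-D1 in 15 of 15 (0.29, 4), B2m in 14 of 15 (0.28, 6) and H2-Q7 in 14 of 14 (0.51, 5), while Tap2 lay higher in 6 of 15.

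B2m in granulocyte progenitor-like cells was at 876, 918, 966 and 831 CPM in Tet2-KO mice given vehicle and at 718, 636, 758 and 704 CPM in WT. The groups did not overlap (log2 fold change 0.37, adjusted p = 0.174 by edgeR and 0.0174 by DESeq2), and for B2m this was so in 6 of 15 classes, beside 1.45% of the pairs of all genes. H2-K1 in monocyte progenitor-like cells was at 647, 649, 607 and 543 CPM in Tet2-KO and at 476, 464, 499 and 470 CPM in WT. These mice did not overlap either (log2 fold change 0.38). In NK and T cell-like cells, by contrast, the vehicle log2 fold changes were small or below 0, at 0.10 for B2m, 0.06 for H2-K1, 0.09 for H2-D1, 0.19 for H2-Q7 and -0.38 for H2-Q6.

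Whether IL1β changed the class I difference between genotypes was tested as an interaction. By edgeR no class I gene passed in any of the 15 classes beyond HSC-like cells, 0 of 134 pairs against 0.0112% of the pairs of all genes. At an unadjusted p under 0.05, 10 pairs lay above 0 and 1 below 0. B2m, H2-K1, H2-D1, H2-Q6 and H2-Q7 in NK and T cell-like cells were among those above 0. No share over all genes is given at that p, so nothing is read from these counts. DESeq2 called 0, and calling the mouse by the ratio of hashtag counts gave 2, B2m and H2-Q6 in NK and T cell-like cells. In those cells the difference of the log2 fold changes was 0.73 for B2m (adjusted p = 0.204, edgeR), 0.74 for H2-K1 (0.259), 0.88 for H2-D1 (0.181), 1.10 for H2-Q7 (0.194) and 1.62 for H2-Q6 (0.177). The called difference under IL1β is therefore not shown to differ from the uncalled difference with vehicle.

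IL1β itself, compared with vehicle, went with lower values of some class I genes and higher values of others. H2-D1 fell and the loading genes Tap2 and Tapbp rose in granulocyte progenitor-like cells of both genotypes, while B2m in WT mice was called in no class. It lay higher in 6 and lower in 10 of the 16 classes by edgeR, from -0.25 in HSC-like cells to 0.30 in erythroblast-like cells (727 ± 100 CPM with IL1β and 540 ± 88.1 CPM with vehicle). In immature neutrophil-like cells the mice did not overlap (668 to 977 CPM against 528 to 638 CPM, log2 fold change 0.17, adjusted p = 0.487, edgeR). These contrasts use the IL1β mice on which the genes were chosen, so that their values in HSC-like cells are descriptions, and the 2 genotypes were tested separately. With the settings used throughout no gene was called in HSC-like cells. With other settings H2-Q7 was called lower there in WT, among them libraries as replicates (log2 fold change -0.86) and no filter on low counts (-0.71). In WT 8 of 144 pairs were called, 4 higher and 4 lower with IL1β, beside 9.26% of the pairs of all genes, and in Tet2-KO 12 of 144, 10 higher and 2 lower, beside 12.0%. The Tet2-KO calls were 9 higher and 7 lower without the filter on low counts, and likewise with hashtags called by ratio. With Leiden clusters they were 9 higher and 6 lower. With the settings used throughout, the class I genes were thus called no more often than other genes. The classes come from the same mice and libraries. For these contrasts no share over all genes is given for counts of classes by direction or for mice that did not overlap.

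**Figure D4:**
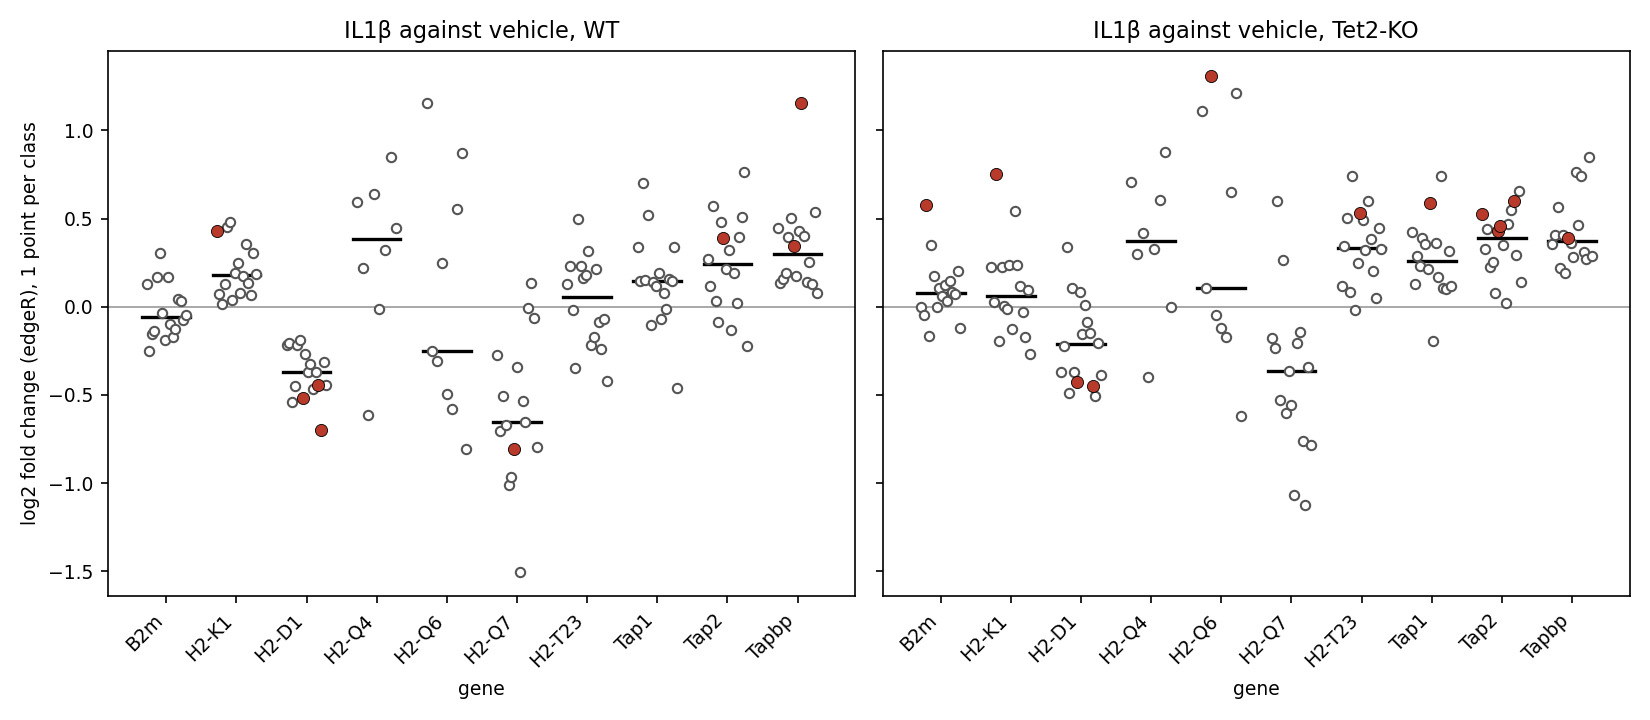
Log2 fold change of IL1β against vehicle for each class I gene in WT and Tet2-KO mice, with 1 point per class (red where the adjusted p is under 0.05) and a bar at the median. In WT the points of H2-D1 all lie below 0 and those of H2-K1 and Tapbp all above 0; in Tet2-KO those of Tap2 and Tapbp all lie above 0.

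The heavy chain H2-D1 lay lower with IL1β in 16 of 16 classes of WT mice (median log2 fold change -0.37) and in 12 of 16 classes of Tet2-KO mice (-0.21). In WT granulocyte progenitor-like cells it was at 313, 307, 278 and 348 CPM with IL1β and at 437, 402, 360 and 356 CPM with vehicle. The mice did not overlap (log2 fold change -0.52, SE 0.12, adjusted p = 0.00342, edgeR). In Tet2-KO mice the values were 361, 468, 377 and 394 CPM with IL1β and 418, 437, 578 and 503 CPM with vehicle, where mouse 2 given IL1β lay among the vehicle mice (-0.43, SE 0.12, adjusted p = 0.00698, edgeR). In WT monocyte-like cells H2-D1 was at 529, 606, 423 and 438 CPM with IL1β and at 822, 954, 777 and 652 CPM with vehicle (-0.70, SE 0.15, adjusted p = 0.0115, edgeR). It was also called lower in monocyte progenitor-like cells of WT (-0.44, adjusted p = 0.0109) and Tet2-KO (-0.45, adjusted p = 0.00642). Without WT mouse 3 of the IL1β group the WT calls in monocyte-like (adjusted p = 0.0729) and monocyte progenitor-like cells (0.0804) were lost, as was the latter without WT mouse 1 of the vehicle group (0.0848), and without Tet2-KO mouse 3 of the vehicle group that in Tet2-KO monocyte progenitor-like cells was lost (0.0565). The call in WT monocyte-like cells was also lost with at least 30 cells asked of each mouse (0.0520). That in WT monocyte progenitor-like cells was lost with hashtags called by ratio (adjusted p = 0.0956, edgeR). With libraries in place of mice as replicates every one of these H2-D1 calls was lost (adjusted p = 0.0622 to 0.156, edgeR). With the library number as a block, H2-D1 was called lower also in basophil-like (-0.49, adjusted p = 0.0383, edgeR) and monocyte-like cells (-0.51, adjusted p = 0.0352) of Tet2-KO mice, and with libraries as replicates neither was called (adjusted p = 0.281 and 0.274).

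H2-K1, the other classical heavy chain, did not follow H2-D1. It lay higher with IL1β in 16 of 16 classes of WT mice (median log2 fold change 0.18) and in 10 of 16 of Tet2-KO mice (0.06). The 1 class called in WT was CFU-E-like cells, with 538, 390, 407 and 542 CPM under IL1β and 298, 287, 388 and 285 CPM with vehicle (log2 fold change 0.43, adjusted p = 0.0484, edgeR). That call was lost in 13 settings, among them without WT mouse 1 of the IL1β group (0.33, adjusted p = 0.157) and with the library number as a block (adjusted p = 0.0513, edgeR). With that block H2-Q4 was called higher with IL1β in CFU-E-like (0.68, adjusted p = 0.0413) and megakaryocyte progenitor-like cells (0.86, adjusted p = 0.0440) of Tet2-KO mice, which brought the Tet2-KO calls from 12 to 16, and with libraries as replicates neither was called (0.463 and 0.266). The ratio of H2-D1 to H2-K1 UMIs was lower with IL1β in the mean of 16 of 16 classes in both genotypes, and the mice were apart without overlap in 10 of the 16 classes in WT and 5 of the 16 in Tet2-KO. For a ratio of 2 genes no share over all genes was computed. In granulocyte progenitor-like cells it was 0.724 ± 0.040 (SD, n = 4) with vehicle and 0.497 ± 0.054 with IL1β in WT, and 0.764 ± 0.134 and 0.574 ± 0.047 in Tet2-KO. In WT monocyte-like cells it went from 1.59 ± 0.19 to 0.95 ± 0.33. The ratio does not depend on the scaling between mice.

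The peptide loading genes had higher values with IL1β in most classes. Tapbp lay higher in 16 of 16 classes of both genotypes (median log2 fold change 0.30 in WT and 0.37 in Tet2-KO), and Tap2 in 13 of 16 classes of WT (0.24) and 16 of 16 of Tet2-KO (0.39). In WT granulocyte progenitor-like cells Tap2 was at 62.9, 69.1, 74.3 and 99.2 CPM with IL1β and at 51.0, 49.3, 51.1 and 48.3 CPM with vehicle, without overlap (log2 fold change 0.39, SE 0.10, adjusted p = 0.00642, edgeR). In Tet2-KO mice Tap2 was at 78.3, 71.5, 68.3 and 71.4 CPM with IL1β and at 49.5, 46.9, 51.7 and 44.9 CPM with vehicle, again without overlap (0.43, SE 0.09, adjusted p = 0.0012, edgeR). Tapbp in the same cells rose in WT (83.1, 86.0, 101 and 109 CPM against 58.5, 62.3, 68.4 and 67.8 CPM, log2 fold change 0.35, adjusted p = 0.00787) and in Tet2-KO (0.39, adjusted p = 0.00141). Tap2 was also called in CFU-E-like (0.53), immature myeloid progenitor-like (0.46) and monocyte progenitor-like cells (0.60) of Tet2-KO mice, and Tapbp in lymphoid progenitor-like cells of WT (1.16), where 3 to 4 mice per group were measured. The call in immature myeloid progenitor-like cells held in 8 of 26 settings. It was lost under DESeq2 (adjusted p = 0.0970), with Leiden clusters (0.0690, edgeR) and without any 1 of the 8 Tet2-KO mice (0.0515 to 0.126). Without Tet2-KO mouse 2 of the IL1β group the CFU-E-like call was lost (adjusted p = 0.108), and without mouse 1 the monocyte progenitor-like call (0.0622). Both were also lost with libraries as replicates (adjusted p = 0.111 and 0.0576, edgeR), and the CFU-E-like call with hashtags called by ratio (0.202). The Tapbp call in lymphoid progenitor-like cells was lost without WT mouse 3 or 4 of the IL1β group (adjusted p = 0.132 and 0.168) or WT mouse 1 or 3 of the vehicle group (0.0528 and 0.0886). It was also lost without the filter on low counts (adjusted p = 0.0749, edgeR), and DESeq2 gave it no adjusted p. With libraries as replicates Tap2 in WT granulocyte progenitor-like cells (adjusted p = 0.0886, edgeR) and Tapbp in those of WT (0.110) and Tet2-KO (0.0907) were not called, whereas Tap2 in those of Tet2-KO was called in all 26 settings. With the library number as a block Tapbp was called also in WT CFU-E-like cells (0.42, adjusted p = 0.0357, edgeR), but not with libraries as replicates (0.0786). In granulocyte progenitor-like cells the summed level of that class's own 9 markers was 14195 to 17230 CPM with IL1β and 18942 to 21964 CPM with vehicle in WT, and 15912 to 22335 and 20836 to 23077 CPM in Tet2-KO. The part of this difference in the class I values was not tested.

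**Figure D5:**
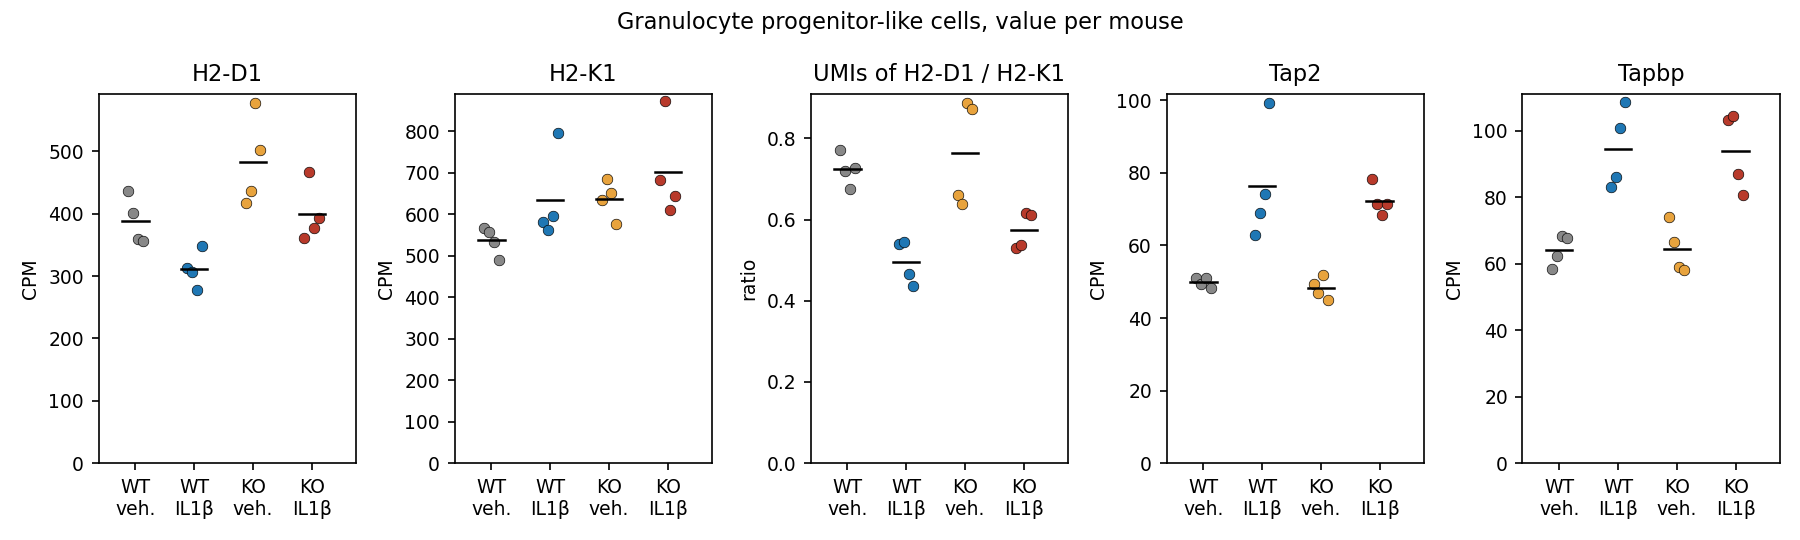
H2-D1, H2-K1, Tap2 and Tapbp in CPM and the ratio of H2-D1 to H2-K1 UMIs in granulocyte progenitor-like cells, 1 point per mouse with the group mean as a line. With IL1β the 4 WT mice lie below the vehicle mice for H2-D1 and its ratio to H2-K1, and above them for Tap2 and Tapbp.

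In immature myeloid progenitor-like cells of Tet2-KO mice, the Qa-1 gene and the other transporter subunit were also called higher with IL1β, but not in all settings. H2-T23 was at 192, 131, 137 and 139 CPM with IL1β and at 99.9, 82.6, 102 and 85.5 CPM with vehicle, without overlap (log2 fold change 0.53, adjusted p = 0.0284, edgeR). Tap1 was at 141, 126, 84.8 and 139 CPM with IL1β and at 106, 61.9, 80.1 and 56.4 CPM with vehicle, which overlapped (0.59, adjusted p = 0.0288). Of 26 settings H2-T23 was called in 18 and Tap1 in 16. With Leiden clusters both log2 fold changes were 0.26 and neither was called (adjusted p = 0.176 and 0.155, edgeR). Both were also lost under DESeq2 (adjusted p = 0.0569 and 0.0587), with libraries as replicates (0.0996 and 0.0892, edgeR) and with at least 30 cells per mouse (0.0744 and 0.0787). H2-T23 lost its call without Tet2-KO mouse 1 of the IL1β group or mouse 2 or 4 of the vehicle group (adjusted p = 0.0587 to 0.113), and Tap1 without mouse 1, 2 or 4 of the IL1β group or mouse 2, 3 or 4 of the vehicle group (0.0556 to 0.195). In NK and T cell-like cells of Tet2-KO mice B2m (0.58, adjusted p = 0.0302), H2-K1 (0.75, adjusted p = 0.0122) and H2-Q6 (1.31, adjusted p = 0.009) were called higher with IL1β, beside 5.79% of the genes tested there. The share of these cells with a UMI of Cd3d, Cd3e or Cd3g was 66.7%, 72.7%, 70.5% and 40% with vehicle and 51.7%, 34.9%, 32.4% and 38.1% with IL1β in Tet2-KO mice 1 to 4, which overlapped only through vehicle mouse 4. In the cells without such a UMI B2m (0.70, adjusted p = 0.0339, edgeR), H2-K1 (0.79, adjusted p = 0.0354), H2-Q6 (1.49, adjusted p = 0.0309) and Tapbp (1.06, adjusted p = 0.0452) were called, beside 8.25% of the genes tested. In the cells with one, 0 of 9 class I genes were called by edgeR, beside 3.52% of the genes tested. The log2 fold changes there were 0.43 for B2m (adjusted p = 0.202, edgeR), 0.71 for H2-K1 (0.0789) and 0.94 for H2-Q6 (0.268). B2m and H2-K1 had an unadjusted p under 0.05, for which no share over all genes is given. The part of the share of Cd3 cells in the result for the whole class was not tested. B2m lost its call without any of 6 Tet2-KO mice (adjusted p = 0.0657 to 0.113) and H2-K1 without any of 4 (0.0504 to 0.0668), and H2-Q6 without vehicle mouse 2 (0.0514). With Leiden clusters in place of gates all 3 were lost (adjusted p = 0.104 to 0.330). B2m and H2-K1 were lost with libraries as replicates (adjusted p = 0.184 and 0.0673, edgeR), and B2m without the filter on low counts (0.0656) or without WT vehicle mouse 3 (0.0524). H2-Q7 lay lower with IL1β in 14 of 15 classes of WT (median -0.66) and 13 of 15 of Tet2-KO (-0.36). It was called in WT immature myeloid progenitor-like cells, with 38.5, 42.8, 30.4 and 64.4 CPM against 75.7, 35.1, 73.6 and 51.8 CPM, which overlapped (-0.81, adjusted p = 0.0427, edgeR), and that call was lost in 9 of 25 settings. Among them were DESeq2 (adjusted p = 0.0703), hashtags called by ratio (-0.51, adjusted p = 0.267, edgeR), 1 more marker in the gate (0.0517), libraries as replicates (0.0720), and leaving out WT mouse 1, 2 or 3 of the IL1β group (0.0561 to 0.223) or WT mouse 1 or 3 of the vehicle group (0.168 and 0.125). Other settings added calls of lower H2-Q7. In WT granulocyte progenitor-like cells these included no filter on low counts (-0.95, adjusted p = 0.0236, edgeR) and libraries as replicates (-0.99, adjusted p = 0.0488).

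Other genes of the pathway were counted as a list of 27, which holds regulators (Nlrc5, Irf1, Ifngr1), proteasome subunits and activators (Psmb8, Psmb9, Psmb10, Psme1, Psme2), chaperones (Calr, Canx, Pdia3) and further class I genes. In Tet2-KO against WT under IL1β, 5 of 275 pairs of gene and class were called higher and 1 lower, all of them in NK and T cell-like cells, beside 0.292% of the pairs of all genes. Nlrc5, the class I transactivator, was at 109, 106, 145 and 96.6 CPM in Tet2-KO and at 16.7, 0, 42.8 and 50.0 CPM in WT, with no overlap (log2 fold change 1.71, SE 0.35, adjusted p = 0.00824, edgeR). It passed the filter on low counts in these cells through Tet2-KO mice alone, so its call is read as a description. No WT mouse of either treatment was above 51.2 CPM. Nor was Nlrc5 particular to these cells. It lay higher in Tet2-KO in 7 of 7 classes tested under IL1β and in 8 of 8 with vehicle (median log2 fold change 0.61 in both). Irf1 lay higher in 12 of 13 and 5 of 14 classes, and Ifngr1 in 7 of 14 and 10 of 15. Irf1, the interferon-induced factor that binds class I promoters, was at 109, 137, 109 and 121 CPM against 25.0, 66.0, 37.4 and 44.4 CPM (1.68, SE 0.30, adjusted p = 0.00224, edgeR). Ifngr1, a chain of the interferon γ receptor, was at 466, 480, 497 and 368 CPM against 142, 264, 160 and 183 CPM (1.43, SE 0.22, adjusted p = 0.0011, edgeR). No mice of the 2 groups overlapped for these 3 genes, and over the 15 classes every Tet2-KO mouse lay above every WT mouse in 2.11% of the pairs of all genes. That share was not computed for NK and T cell-like cells alone. The WT mice given IL1β held 19 UMIs of Nlrc5, 21 of Irf1 and 92 of Ifngr1 in all. The Tet2-KO mice given IL1β held 93, 107 and 391. WT mouse 2 had only 12 of these cells. The immunoproteasome subunits Psmb8 (0.99, adjusted p = 0.0303) and Psmb10 (0.88, adjusted p = 0.0280) were higher as well, and the chaperone Canx was lower (-0.71, adjusted p = 0.0234). Of the 17 list genes tested in these cells the median log2 fold change was 0.62, and that of all genes 0.00. With vehicle 0 of 296 pairs were called by edgeR, with 17 higher (2.15% of the pairs of all genes) and 0 lower at an unadjusted p under 0.05. As an interaction 1 of 275 was called, Ifngr1 in NK and T cell-like cells (1.62, adjusted p = 0.0343), beside 0.0112% of the pairs of all genes.

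The interferon response list of 14 genes and the class II list of 5 genes did not show the same calls. In NK and T cell-like cells under IL1β, 4 interferon genes could be tested between genotypes (median log2 fold change 0.80) and 0 were called by edgeR. The summed level of the interferon list was 300.2 to 731 CPM in Tet2-KO and 192 to 376 CPM in WT. Over all classes 2 of 83 pairs of the interferon list were called under IL1β, beside 0.292% of the pairs of all genes, both Ifitm3, an antiviral membrane protein, in lymphoid progenitor-like (1.47, adjusted p = 0.0386) and monocyte progenitor-like cells (1.13, adjusted p = 0.00048). With vehicle 3 of 91 pairs were called higher in Tet2-KO, beside 0.0322% of the pairs of all genes, Ifi27l2a (1.45) and Ifitm3 (0.89) in granulocyte progenitor-like cells and Ifitm3 (0.87) in monocyte progenitor-like cells. Of the class II list, 0 of 29 pairs were called by edgeR under IL1β (3 higher and 4 lower at an unadjusted p under 0.05, beside 4.28% and 3.91% of the pairs of all genes) and 0 of 32 with vehicle (1 higher and 2 lower, beside 2.15% and 1.91%).

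Against vehicle, IL1β lowered immunoproteasome and interferon-response genes in up to 9 of 16 classes. Of the pathway list, 12 of 296 pairs were called higher and 22 lower in WT, and 20 higher and 32 lower in Tet2-KO, beside 3.76% and 5.51% of the pairs of all genes in WT and 5.32% and 6.68% in Tet2-KO. Psmb8 was called lower in 8 classes of WT and 9 of Tet2-KO (median log2 fold change -0.73 and -0.78). In granulocyte progenitor-like cells it was at 223, 207, 163 and 248 CPM with IL1β and at 392, 334, 327 and 335 CPM with vehicle in WT, which did not overlap. Psmb10 was called lower in 4 and 7 classes, and the third subunit Psmb9 in 1 and 2 (median -0.40 and -0.21). Irf1, by contrast, was called higher in 2 classes of WT and 7 of Tet2-KO, and Ifngr1 in 3 and 5. Of the interferon list 25 of 91 pairs were called lower in WT and 0 higher, and 19 lower and 2 higher in Tet2-KO. The lower calls were led by Bst2 (8 and 7 classes), Ifi27l2a (7 and 4) and Ifitm3 (6 and 4), and both higher calls were Ifit2. Of the class II list 1 of 32 pairs was called higher and 1 lower in WT, and 1 higher and 2 lower in Tet2-KO.

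Across the 64 means of class and group, the genes whose pattern was most like that of B2m, by Pearson's r of log2(CPM + 1) among 6230 genes with a mean of at least 20 CPM, were Ly6a (r = 0.841), Malat1 (0.841), Tmem176a (0.828), Nek7 (0.827) and Shisa5 (0.802). Ly6a encodes the stem cell antigen Sca-1. Of the other class I genes H2-K1 (0.751), Tapbp (0.728) and H2-T23 (0.726) were closest to B2m, and H2-D1 followed at 0.628. The Q-region genes (0.438 to 0.459) and Tap1 (0.302) were less alike. The 64 points share mice, libraries and depth within a group, so these values are descriptions.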

How the data were processed

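The authors deposited gene-by-barcode matrices of raw UMI counts and hashtag counts for 8 libraries; per the submitters' notes reads were aligned to mm10 with Cell Ranger 3.1.0 and cells handled in Seurat 3.2.3. From these counts, cells were filtered as in the study, assigned to mice with HTODemux (Seurat 5.3.0; the deposited hashtag list ties each tag to a numbered mouse), gated by markers and summed per mouse and class. edgeR 4.0.16 (R 4.3.3; glmQLFit, filterByExpr, TMM, all 4 groups in 1 fit per class, at least 10 cells per mouse) gave the tests; DESeq2 1.42.0, other scalings, filters, gates, Leiden clusters, hashtag calls and replicate units, and leaving out each mouse, were alternatives. Levels are CPM without TMM. Scripts were tested on simulated data. Cells with both hashtags were the only doublets removed; pairs within a mouse remain. All 10 members are named. The pathway, interferon and class II lists are counted whole, and not every called gene of them is named. Members and lists were chosen with earlier results of these data known. The labels do not say whether mouse numbers pair vehicle with IL1β within a genotype. In granulocyte progenitor-like cells, deviations of same-numbered mice correlated at 0.13 to 0.53 in WT and 0.28 to 0.36 in Tet2-KO (libraries 0.39 in both). Between genotypes the libraries correlated at -0.37 to 0.04. Mice with different numbers were not compared, so these values cannot establish a pairing. The block used was the library number.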

Additional observations from a re-analysis of the deposited data

Results flagged for a closer look

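In 5 of 64 groups of 4 mice checked for the genes and classes called above, 1 mouse stood apart from the other 3 by Dixon's test at the 95% level; chance gives about 1 in 20 groups. H2-K1 in CFU-E-like cells of WT mice given vehicle was 388 CPM in 1 mouse and 285 to 298 CPM in the others. Tap2 in CFU-E-like cells of Tet2-KO mice given vehicle was 19.3 CPM in 1 mouse and 30.1 to 32.1 CPM in the others. H2-T23 in immature myeloid progenitor-like cells of Tet2-KO mice given IL1β was 192 CPM in mouse 1 and 131 to 139 CPM in the others. H2-D1 in monocyte progenitor-like cells of Tet2-KO mice given IL1β was 518 CPM in mouse 2 and 438 to 450.2 CPM in the others. Tap2 in monocyte progenitor-like cells of WT mice given IL1β was 99.3 CPM in mouse 4 and 61.4 to 65.8 CPM in the others.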

How the results depend on the processing

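The count of called class I pairs in Tet2-KO against WT under IL1β was 5, and became 10 without the filter on low counts, 7 under DESeq2, 2 with libraries as replicates, 3 with 1 more marker asked for in each gate, 4 with the Q-region genes added up, and 0 with at least 30 cells per mouse, where NK and T cell-like cells could not be tested; without single mice it was 3 to 6, with 3 without WT mouse 1 or 3 or Tet2-KO mouse 1 or 2 of the IL1β groups. The share of all genes called is given for the settings used throughout and not for these others, so their counts are not set against one. With vehicle the count of 0 became 1 under DESeq2 and 2 without the filter, and stayed 0 without any single mouse. For IL1β in WT the count of 8 became 17 with Leiden clusters, 12 without the filter, 4 with libraries as replicates and 5 with at least 30 cells, and was 4 to 11 without single mice (4 without vehicle mouse 1 or IL1β mouse 3). For IL1β in Tet2-KO the count of 12 became 2 with libraries as replicates and 6 with at least 30 cells, and was 6 to 16 without single mice (6 without IL1β mouse 1, 7 without vehicle mouse 4). It rose to 9 higher and 7 lower calls without the filter, and likewise with hashtags called by ratio. With Leiden clusters there were 9 higher and 6 lower calls. The interaction count of 0 became 2 with hashtags called by ratio. With the library number (mice 1 and 2 against 3 and 4) as a replicate block the counts were 6, 0, 8, 16 and 0 in this order; the added call under IL1β was B2m in granulocyte progenitor-like cells (adjusted p = 0.0390, edgeR; 0.679 with libraries as replicates), those for IL1β stand beside the results, and the block changed no other call. The causes were not tested. The log2 fold change of B2m in erythroblast-like cells under IL1β was 0.23 and ran from -0.13 to 0.42 without single mice (-0.13 without Tet2-KO IL1β mouse 2). In plasma cell-like cells it was -0.09, became 0.098 with libraries as replicates and ran from -0.19 to 0.19 without single mice (0.19 without WT IL1β mouse 2). The 6.76-fold range of B2m levels was 7.43 with medians and 7.72 with Leiden clusters. For B2m in each class under IL1β and the called pairs (not for pairs that were not called), leaving out a mouse kept direction and call in 554 cases, ended the call in 66, added it in 2 and turned the sign in 2; other settings did so in 307, 53, 5 and 1.

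Depth limits the small classes: 2514 genes could be tested in class II dendritic cell-like, 2531 in lymphoid progenitor-like and 3818 in NK and T cell-like cells, and H2-Q4 and H2-Q6 were testable in 8 and 9 of 16 classes. The 4 mice of a group, pooled by 2, share library effects within a pool.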
